A study of Danio rerio with 8 samples.

Results

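The FoxA genes are a small group of forkhead transcription factor genes, and the 4 of zebrafish are foxa, foxa1, foxa2 and foxa3. They were taken from the authors' deposited comparison of RNA from control and SU5402-treated embryos by an exact match of the gene symbol. The match found 5 rows of 33843, because foxa has 2 rows, and 1 of the 5 rows, that of foxa3, was among the 12757 rows that the authors tested. Each row is an assembled locus, a stretch of genome to which reads were assigned.

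FoxA proteins bind DNA through a winged-helix forkhead domain and can bind sites in closed chromatin, for which they are called pioneer factors. In vertebrate embryos they act in the organizer, in the axial mesoderm that forms the notochord and prechordal plate, in the floor plate of the neural tube and in the endoderm. The zebrafish foxa2 gene, long called axial, is known from the axial mesoderm, floor plate and endoderm. For foxa3 the known settings include the dorsal side of the early embryo and its axial derivatives, and are not limited to them.

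The series holds 8 samples of whole zebrafish embryos at the dome stage, a late blastula stage before the gastrula period. RNA-seq and ATAC-seq were done on 2 control and 2 SU5402 samples each. SU5402, a small molecule that blocks the kinase of FGF receptors, was given at 20 µM from the 2-cell stage, and the controls had an equal volume of its solvent DMSO, so that both groups were exposed to DMSO. SU5402 also inhibits VEGF receptor kinases, and no genetic loss of FGF signalling is among the groups. Of these the 4 ATAC-seq samples are not used here. The title of the series names maternal and zygotic FGF in neural induction as its subject, and the labels give no strain and do not say whether replicates came from separate clutches.

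The authors deposited 1 FPKM value per locus and condition (a fragment count scaled to transcript length and to the size of the library). Each such value stands for the 2 RNA samples of a condition and is called pooled here. No value below therefore has a replicate error, and each p and q is the authors' own, which may measure technical spread only. A locus was called when the authors' q was at most 0.05. A stricter reading, named the table-wide adjustment, applied the Benjamini-Hochberg method to the authors' p over all tested loci. The authors' q lies far below it for the same p, for foxa3 0.00294 against 0.0360. A q of at most 0.05 thus does not hold the share of false calls among these loci to 0.05. Depth per sample is unknown, and because the embryos were taken whole, fewer cells of a type and less RNA per cell cannot be told apart.

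At the dome stage the FoxA family was represented almost wholly by foxa3. Its level was 31.8 FPKM in control embryos and 17.9 FPKM under SU5402. The next gene, foxa2, had 1.69 FPKM in control and 1.14 FPKM in SU5402 embryos. For foxa the levels were 0.172 and 0.223 FPKM, and for foxa1, which is known from the endoderm of later stages, 0.0436 and 0.0854 FPKM. The order foxa3, foxa2, foxa, foxa1 was the same in both conditions, and without values per sample the spread around neighbours in it is unknown. The place of foxa in this order rests on 1 of its 2 rows. By the other, listed at 0 in both conditions, foxa would come after foxa1. In control embryos foxa3 stood 18.8-fold above foxa2 on the FPKM scale, which is corrected for length, and in SU5402 embryos 15.7-fold above it.

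Summed over the 4 genes, FoxA transcripts came to 33.7 FPKM in control and 19.4 FPKM in SU5402 embryos, a log2 difference of -0.80. Of these sums foxa3 made up 94.4% in control and 92.5% in SU5402, and foxa2 5.01% and 5.88%. The lower FoxA sum in treated embryos is thus nearly all foxa3: its level differed by -13.9 FPKM between SU5402 and control, and that of foxa2 by -0.550 FPKM.

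**Figure D1:**
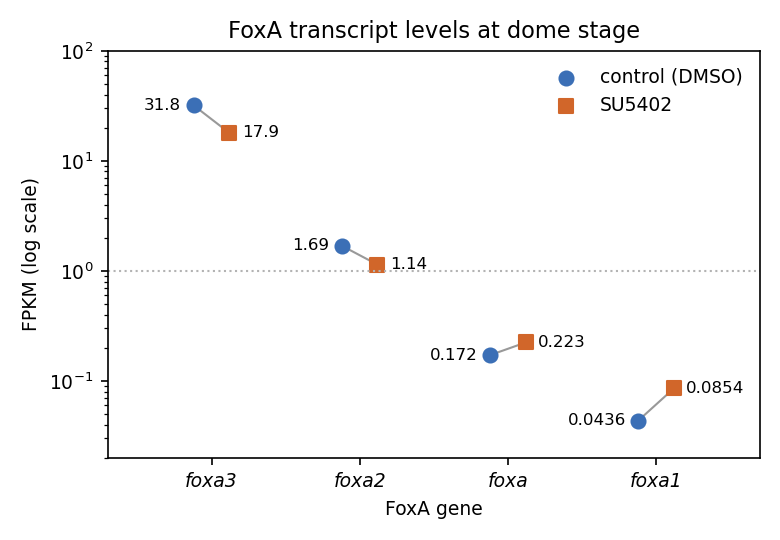
Level of each FoxA gene in FPKM (log axis) in control (circles) and SU5402 (squares) embryos. There is no error bar because only 1 pooled value per condition was deposited. The dotted line marks 1 FPKM and for foxa the row listed at 0 is not drawn. The value of foxa3 goes from 31.8 to 17.9 FPKM and that of foxa2 from 1.69 to 1.14 FPKM, while foxa reaches at most 0.223 FPKM and foxa1 at most 0.0854 FPKM.

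The foxa3 transcript fell 1.78-fold in SU5402 embryos, a log2 change of -0.83 (q = 0.00294 in the authors' deposited table). It also passed the table-wide adjustment, with an adjusted p of 0.0360 from the Cuffdiff p of 0.0005. By the authors' q, 2.06% of the 12757 tested loci were called lower and 3.58% higher. By the table-wide adjustment these shares were 0.651% and 0.996%. A p as small as that of foxa3 was held by 177 tested loci, 1.39% of them. Among the FoxA genes the count was 1 called of 1 tested, so that nothing can be read from it about the family.

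In size the change of foxa3 was below the middle of the called falls. Of the 263 loci called lower, 170 fell further than foxa3, and the median fall of those with a value above 0 in SU5402 embryos was 1.96-fold. Its place among abundant transcripts also moved: 77.3% of tested loci had a lower FPKM than foxa3 in control embryos, and 63.6% in SU5402 embryos. Of the 1106 tested loci with a control level between 25.5 and 39.8 FPKM, around that of foxa3, 2.44% were called lower.

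No difference can be claimed for the other FoxA genes. The authors' deposited table marks foxa2, foxa, and foxa1 as not tested, and no p is available for them. The log2 ratio of foxa2 was -0.57, of the same sign as that of foxa3, and 4.66% of tested loci had a lower control FPKM than foxa2. An FPKM at least that of foxa2 in the higher condition was reached by 1110 of the 21086 untested rows. Its lack of a test is thus shared with loci at or above its level, while 106 tested rows reached no more than foxa2. For foxa and foxa1 the log2 ratios were 0.38 and 0.97, but they rest on levels near 0. With a pseudocount of 1 FPKM they became 0.06 and 0.06, while foxa2 had -0.33 and foxa3 -0.79.

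The loci are given on the Zv9 build, with 1-based starts. The foxa3 row lies at chromosome 18 from 44759027 to 44762733, and shares its region with no other row. Next to it, irf2bp1, 7.26 kb to the right, had 15.0 FPKM in control and 12.1 in SU5402 embryos, and pld3, 69.9 kb to the left, had 5.19 and 5.89 FPKM. Neither neighbour was called (q = 0.316 and 0.739 in the authors' deposited table). The same genes flank foxa3 among protein-coding genes in the RefSeq annotation of the GRCz12tu assembly.

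The other FoxA loci lie on chromosomes 17 and 14. The foxa2 row spans chromosome 17 from 42391852 to 42394352, and the kinase gene PRKD3, 42.5 kb to its right, was not called at 6.58 and 7.43 FPKM. To its left the nearest named row, zgc:171531, 179 kb away, was listed at 0 in both conditions. On the same chromosome the foxa1 row spans 10280426 to 10283287. Its neighbour mipol1, 4.71 kb to the left, had 14.5 FPKM in control and 24.1 in SU5402 embryos with no call (q = 0.190 in the authors' deposited table), while ttc6 on the other side was listed at 0 and 0.0442 FPKM.

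For foxa the assembly gives a pair of rows. The one with a value above 0 belongs to a region of 10 rows at chromosome 14 from 34838405 to 35021265, which also holds urp1, ocrl and zdhhc24, and reads may be split between such rows. To the left of that region, BX842614.2 was not tested at 0.0614 and 0.185 FPKM. The other, at chromosome 14 from 35059798 to 35064765, is listed at 0 in both conditions and lies 5.25 kb from cyfip2. In the RefSeq annotation of GRCz12tu, cyfip2 is a protein-coding neighbour of foxa. Apart from foxa, cyfip2 is also the nearest named gene to the right of the region of 10 rows, 48.7 kb away. It therefore does not tell the foxa rows apart. Which of the rows holds the true foxa transcript was not tested.

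Within the forkhead family foxa3 was among the most abundant members, and the calls in the family went both ways. Of 51 other forkhead rows, 20 were measured, meaning that they were tested and reached 1 FPKM in the higher condition, and 8 were listed at 0 in both conditions. By control FPKM, foxa3 ranked 4 among all forkhead rows, after foxh1, foxk1 and foxn2b, and by SU5402 FPKM it ranked 7. Of the 20, 3 (15.0%) were lower and 1 (5%) higher by the authors' deposited q, beside 2.06% and 3.58% of all tested loci. By the table-wide adjustment 2 were lower and 1 higher, beside 0.651% and 0.996% of all tested loci. The median log2 change of the 20 was 0.25, beside 0.04 over all measured loci.

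Among measured forkhead genes the log2 change closest to that of foxa3 was that of foxh1, whose protein binds DNA with Smads in Nodal signalling. It fell from 60.3 to 36.2 FPKM, a log2 change of -0.73 (q = 0.000383 in the authors' deposited table). The gene called higher was foxj2, which rose 2.65-fold to 7.16 FPKM. Both foxd5 and foxb1.2, named after their values were seen, were called lower with far larger log2 changes, -5.10 and -3.20. The levels of foxb1.2 were low, at 3.93 and 0.428 FPKM, and a pseudocount of 1 FPKM gave -1.79. It did not pass the table-wide adjustment, while foxd5 did, and another row named foxb1.2 was listed at 0 in both conditions. The uncalled foxd3 and FOXO4 also fell further than foxa3, so that 4 of the 20 measured rows did. For foxd3 the levels were 11.4 and 0.0820 FPKM, a log2 change of -7.12 (q = 0.392 in the authors' deposited table). Those of FOXO4 were 5.37 and 2.62 FPKM. In control embryos foxd5 had 29.8 FPKM, close to foxa3, and in SU5402 embryos it had 0.871 FPKM against the 17.9 FPKM of foxa3. These differences between genes were not tested, since no value per sample is at hand.

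**Figure D2:**
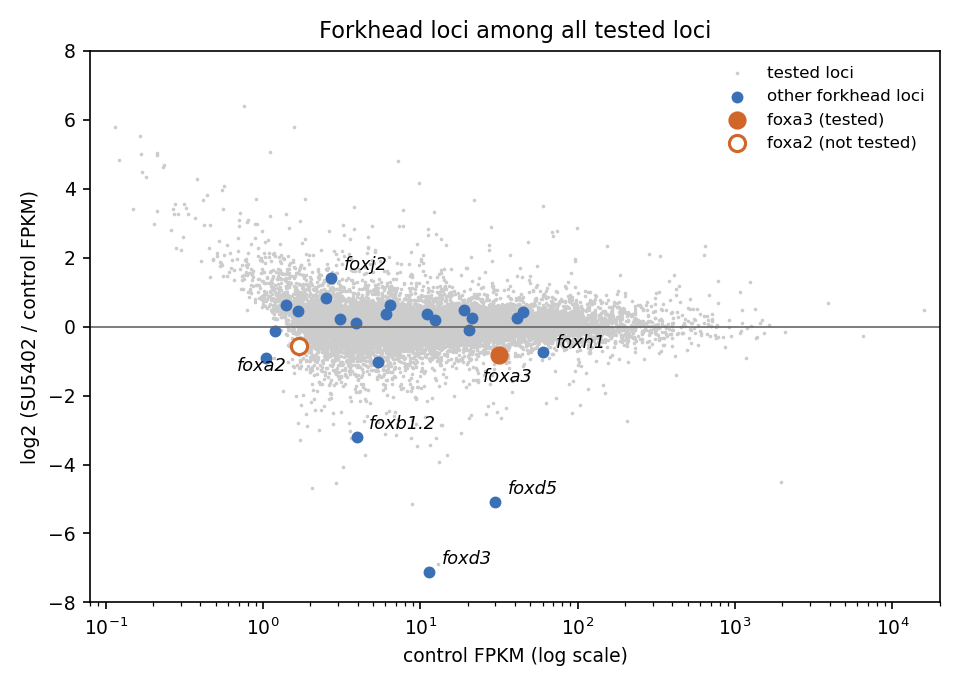
Log2 ratio of SU5402 over control FPKM against control FPKM (log axis) for the tested loci with a value above 0 in both conditions and at least 1 FPKM in the higher (grey), the forkhead loci that reach 1 FPKM (blue), foxa3 (filled orange) and the untested foxa2 (open orange). The point of foxa3 lies at -0.83 beside foxh1 at -0.73, and foxd5, at a similar control level, lies at -5.10.

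By the rule for likeness, the 3 tested genes nearest to foxa3 in the plane of log2 control FPKM and log2 SU5402 FPKM were timm23, dpm2 and zfand2a, out of 10866 candidates. The nearest, timm23, encodes a subunit of the mitochondrial import channel and lay 0.03 log2 units away, at 32.3 and 18.2 FPKM. It was called by the authors' q of 0.0217, as was zfand2a, while dpm2 was not. Unlike foxa3, neither timm23 nor zfand2a passed the table-wide adjustment. Likeness here rests on 2 pooled values per gene, which many unrelated genes can share.

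Several genes of a fixed list for the organizer and axial mesoderm, a setting in which foxa3 is known, fell in SU5402 embryos. They are called organizer genes here, but whether each was confined to that setting at the dome stage was not tested. In that list 7 of 15 measured members were lower by the authors' deposited q and none higher, beside 2.06% and 3.58% of all tested loci. The chordin gene chd, whose secreted product blocks BMP, fell 13.2-fold, the homeobox gene gsc 10.97-fold and the T-box gene ntla, which is required for notochord, 6.26-fold. The Wnt-responsive gene sp5l went from 2.77 to 0.389 FPKM, while flh, a homeobox gene required for notochord, fell 1.54-fold from 55.2 to 35.9 FPKM. The remaining pair called lower were foxd5 and the Iroquois homeobox gene irx1b, the latter from 3.66 to 1.70 FPKM.

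In this list 7 measured members had a lower log2 change than foxa3, and the median log2 change of the list was -0.81, beside the -0.83 of foxa3. The uncalled foxd3, at 11.4 and 0.0820 FPKM, is among the 7. The uncalled members also include dharma (5.85 and 4.92 FPKM), a homeobox gene that acts early in the organizer, admp (9.46 and 5.94 FPKM), a BMP family ligand, and nog1 (4.11 and 4.03 FPKM), another BMP antagonist. Of the measured uncalled members, lhx1a (2.64 and 3.47 FPKM) and ndr2 (1.70 and 2.45 FPKM) were higher under SU5402, and the rest lower. Summed over the 23 members found, the list had 184 FPKM in control and 74.0 under SU5402, and the later notochord markers shha and col2a1a had at most 0.216 and 0.127 FPKM. By the table-wide adjustment 4 members were lower (chd, gsc, ntla and foxd5) and none higher, beside 0.651% and 0.996% of all tested loci. Several of these organizer genes were chosen with their falls known, so neither the count nor the median is independent evidence.

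Hedgehog ligands, which FoxA2 is known to activate in the mouse notochord and floor plate, were near 0 at this stage. In zebrafish embryos here shha was listed at 0 in control and at 0.216 FPKM in SU5402, and shhb at 0.0810 and 0 FPKM. The signal transducer gene smo, with 3.02 and 1.21 FPKM, had a q of 0.0553 in the authors' deposited table and was not called. The gene of the pathway inhibitor sufu, at 91.3 and 86.8 FPKM, was not called either. For klf4b, a Krüppel-like factor gene of the hatching gland, the levels were 140 and 154 FPKM, also with no call.

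In the endoderm list there was 1 call. Of 10 measured members, the chemokine receptor gene cxcr4a was called lower (10.0% of the list, beside 2.06% of all tested loci), from 49.4 to 25.8 FPKM, and none was called higher. The endoderm-specifying gene sox32 had 5.01 FPKM in control and 6.88 under SU5402, and the GATA factor gene gata5 had 9.98 and 15.1 FPKM; the authors' q was 0.394 and 0.0596. Of the other uncalled measured members, hnf1ba, hnf4a, pdx1 and eomesa were higher under SU5402 and gata6 was nearly level. Lower were s1pr2 (2.12 and 1.12 FPKM), with a larger log2 fall than foxa3, and bon (10.1 and 8.72 FPKM). The defining endoderm gene sox17 was under 1 FPKM in both conditions and was not tested. Summed over the 18 members found, the list had 155 FPKM in control and 149 in SU5402 embryos, and its median log2 change was 0.14. None of the 10 liver and gut genes found, which include targets of mammalian FoxA factors such as ttr, was measured, and the highest level among them was 1.18 FPKM.

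Genes of the Nodal pathway, which acts in the formation of both organizer and endoderm, went in both directions. By the authors' deposited q, 2 of 15 measured were lower and 2 higher, 13.3% each, beside 2.06% and 3.58% of all tested loci, and the median log2 change was -0.14. The co-receptor gene oep fell from 161 to 87.3 FPKM, and foxh1 was the other call in that direction. The ligand gene dvr1 rose from 349 to 553 FPKM and the antagonist gene lft2 from 6.93 to 12.5 FPKM. By the table-wide adjustment 2 members were lower and 1 higher, since lft2 did not pass. The shares of all tested loci were then 0.651% and 0.996%. The Nodal ligand gene ndr1, at 4.52 and 2.69 FPKM, and its paralog ndr2, at 1.70 and 2.45 FPKM, were not called.

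**Figure D3:**
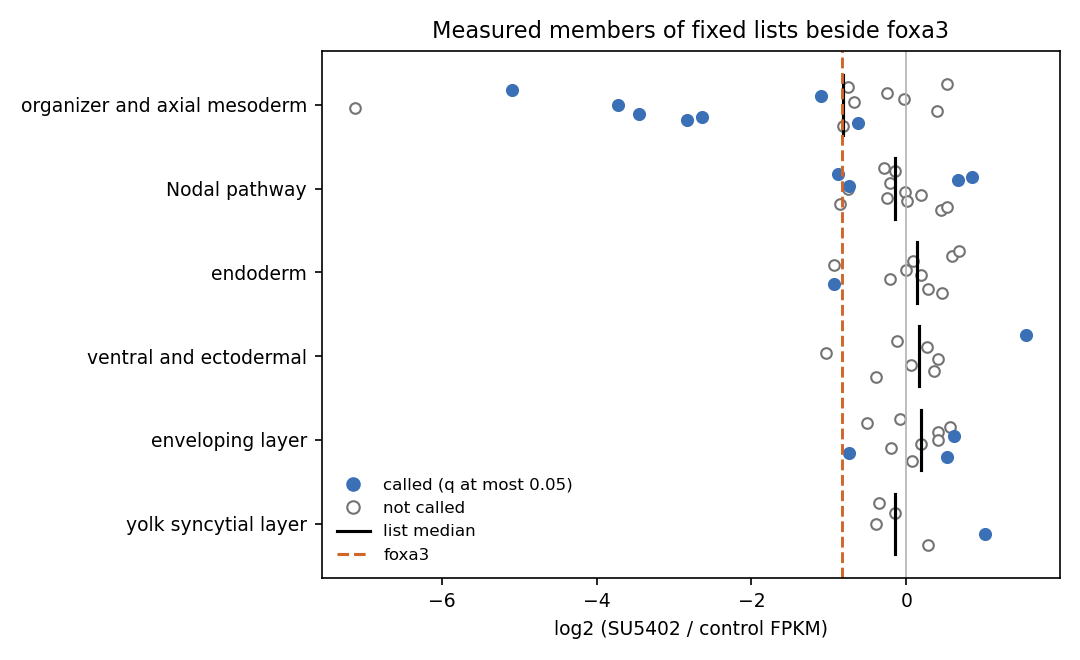
Log2 ratio of SU5402 over control FPKM for each measured member of 6 gene lists (filled, called at the authors' q; open, not called; black bar, list median), with the value of foxa3 as a dashed line. The median of the organizer list, -0.81, lies beside foxa3 at -0.83, and that of the endoderm list lies at 0.14. Several organizer genes were chosen with their falls known, so the organizer median is no independent evidence.

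Markers of other parts of the embryo had 1 call lower and 4 higher among the 24 measured and reported, which is 4.17% and 16.7% beside 2.06% and 3.58% of all tested loci. Of 11 measured enveloping layer genes, the claudin gene cldne was called lower, from 33.95 to 20.4 FPKM, a log2 change of -0.73. The 2 called higher were the keratin gene krt8 and the Krüppel-like factor gene klf2a, and the summed level over the 13 found was 489 FPKM in control and 542 in SU5402 embryos. The yolk syncytial layer list had 1 of 5 measured members called, the apolipoprotein gene apoeb, which rose from 328 to 661 FPKM. The summed level of that list was 472 FPKM in control and 791 under SU5402, and without apoeb it was 145 and 129.8 FPKM. In the ventral and ectodermal list szl was the 1 call among 8 measured, also higher, and the sums were 212 and 213 FPKM. Among its uncalled measured members, vent had a larger log2 fall than foxa3, at 20.1 and 9.85 FPKM (q = 0.311 in the authors' deposited table). Lower as well were vox and bmp2b, while bmp7a, gata2a, tfap2a and tfap2c were higher under SU5402. By the table-wide adjustment the rise of apoeb was the only call in these 3 lists. Over all tested loci that adjustment called 0.651% lower and 0.996% higher. None of the markers in these 3 lists was at 0 in both conditions. Their part in the value of foxa3 was not tested.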

How the data were processed

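RNA was measured in 2 control and 2 SU5402 samples. The submitters' processing notes name Cufflinks, Cuffdiff, TopHat2 and Picard, with Zv9 (danRer7) as the build, and no versions. Per the file headers, the authors' deposited table holds 1 FPKM per condition and locus, a log2 fold change, a test statistic (a score, not used) and a p-value and q-value. FPKM is relative to each library, so a change in total RNA would be hidden, and depth is unknown.

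From it the table-wide adjustment, list counts, pseudocount changes, likeness and neighbours were computed with Python 3.11.15, pandas 2.3.3 and scipy 1.17.1. The adjustment was checked on simulated p-values. Where a symbol had several rows, the measured row of highest mean FPKM was used in lists. Starts had 1 added. No test across replicates was run, although one had been planned for values per sample.

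Members and lists were chosen with earlier results of these data known. A pair of list members is not reported here and was left out of the list counts, and no count is given for the Hedgehog list. The FPKM window around foxa3 was chosen after its value was seen. Named were all FoxA genes, up to 5 called genes per list and direction (forkhead genes only at 1 FPKM or more in both conditions), the 3 nearest genes and the flanking genes. Others, such as uncalled list members, foxd5 and foxb1.2, were named after their values were seen. Alternatives were the table-wide adjustment, a q of at most 0.01, pseudocounts of 1 and 0.1 FPKM, centring on the median, upper-quartile scaling, FPKM filters and leaving out shared regions.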

Additional observations from a re-analysis of the deposited data

How the results depend on the processing

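The call of foxa3 was kept with the table-wide adjustment and at a q of at most 0.01, and the other settings leave the authors' q as it is and could not test the call. Its log2 change stayed negative, with values from -0.91 with upper-quartile scaling to -0.79 with a pseudocount of 1 FPKM. For the untested FoxA genes the pseudocount set the size: a pseudocount of 1 FPKM gave foxa 0.0625, foxa1 0.0568 and foxa2 -0.33, and 0.1 FPKM gave foxa 0.25 and foxa1 0.37. With the table-wide adjustment, 4 organizer genes were lower (7 by the authors' q), 1 Nodal pathway gene higher (2), and 0 enveloping layer genes lower (1) or higher (2) and 0 ventral genes higher (1). A q of at most 0.01 left 4 organizer genes lower, 1 Nodal pathway gene higher and 1 enveloping layer gene higher. Other forkhead genes lower were 2 (3) with the table-wide adjustment. That adjustment called 0.651% of all tested loci lower and 0.996% higher. At 5 FPKM or more on average, 0 other forkhead genes were higher (1) and 2 lower (3), and 5 organizer genes were lower (7). For this filter and for a q of at most 0.01, no share over all tested loci is at hand. Counts under those 2 settings therefore cannot be set beside a background. Pseudocounts, centring and scaling also leave the authors' q as it is, so that they bear on the size of a change and not on the counts. Centring on the median shifts all changes by 0.04. No paired analysis was possible because the table holds 1 pooled value per condition, and leaving out replicates could not be run for the same reason.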
